A study of Mus musculus with 4 samples.

Results

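The transcripts of 5 RGS genes (Rgs2, Rgs4, Rgs9, Rgs16 and Rgs17) are described here, picked by gene name from the 31017 gene names of the deposited tables. All 5 had a row in each table, and all 5 passed the filter on low counts. The RNA came from islets of wild type C57BL/6J male mice aged 10 weeks. After overnight culture and dissociation, beta cells were sorted by flow cytometry on CD63, a tetraspanin of late endosomes and secretory vesicles. CD63 high cells and CD63 low cells yielded 2 bulk RNA-seq libraries each, and the labels describe no treatment and no gate other than CD63. Whether the libraries of a group stem from different mice or different sorts is not stated, and all p-values therefore rest on the spread between these libraries, which may be technical.

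RGS proteins are the brakes of G protein signalling. Once a receptor has switched on a heterotrimeric G protein, an RGS protein speeds the hydrolysis of GTP by the alpha subunit and so ends the signal. In the beta cell, the insulin-secreting cell of the pancreatic islet, acetylcholine and free fatty acids act through Gq and raise insulin release, whereas adrenaline, somatostatin and galanin act through Gi, Go and Gz and lower it. RGS proteins differ in which alpha subunits they act on, so their levels bear on how strongly each of these inputs is read.

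Total counts were 30436845 and 29249270 for CD63 high, against 32953539 and 35003307 for CD63 low libraries. Of 13241 genes tested with edgeR's quasi-likelihood test, 369 had a Benjamini-Hochberg adjusted p under 0.05 (2.79%), 331 of them higher and 38 lower in CD63 high cells. An unadjusted p under 0.05 in the same test was found for 1974 of the 13241 genes. The sort marker itself, Cd63, averaged 2025 ± 72.8 CPM (counts scaled to a common depth, by TMM, where 1 CPM is 27.7 to 39.0 counts) for CD63 high, against 1153 ± 46.8 CPM for CD63 low cells (SD, n = 2 each), a check of the sort and no finding (edgeR adjusted p 0.0484, and 0.000336 to 0.218 over 13 alternatives). Of 10 beta cell markers, Slc2a2, Mafa and Slc30a8 fell, none rose, and the summed level was 551347 and 587175 CPM for CD63 high, against 622133 and 537654 CPM for CD63 low libraries. Such a sum follows the most abundant genes. Among the 10 log2 fold changes 7 lay below 0 and 3 above, with a median of -0.57. Of 12 macrophage markers 11 rose, none was at 0 in all 4 libraries, and their summed level was 158 and 525 CPM in CD63 high replicates 1 and 2 and 23.7 and 42.7 CPM in CD63 low replicates 1 and 2. Alpha cell markers summed to 5622 and 5824 CPM for CD63 high, against 491 and 688 CPM for CD63 low, a sum with the same limit. Of 9 tested alpha cell markers 2 rose (Gcg and Gc) and none fell. Their log2 fold changes lay above 0 for 7 and below 0 for 2. Groups did not overlap in 6 with CD63 high above and in 2 with CD63 high below. Delta cell markers summed to 465 and 842 CPM for CD63 high, against 67.6 and 48.7 CPM for CD63 low, and 3 of 3 tested rose. In bulk RNA, fewer cells of a type and less RNA per cell cannot be told apart.

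Rgs4 was by far the most abundant RGS transcript of these cells. On the scale of TMM-scaled fragments per kilobase of exon and per unit of depth (FPKM), which allows levels of different genes to be set side by side, Rgs4 reached 236 and 156 for CD63 high, against 66.0 and 79.0 for CD63 low libraries. It ranked 69th and 157th of 31017 gene names by FPKM in CD63 high replicates 1 and 2, and 409th and 275th in CD63 low replicates 1 and 2. Rgs11, a gene outside the set, came next in the family, and its mean FPKM over the 4 libraries was 11.7, so that Rgs4 lay 11.5-fold above it. Both groups placed Rgs4 above Rgs11 and Rgs11 above Rgs2 with no overlap.

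Below these, the members lay close together. Mean FPKM over the 4 libraries was 4.60 for Rgs2, 3.42 for Rgs16, 2.68 for Rgs9 and 2.47 for Rgs17. In CD63 high libraries the FPKM ranges of Rgs16, Rgs7, Rgs9 and Rgs17 overlapped from each to the next, so their order there is within the spread, while Rgs2 stood clear of Rgs16. In CD63 low libraries Rgs2 and Rgs16 overlapped, and Rgs16, Rgs7, Rgs9 and Rgs17 did not overlap from each to the next. Some of these gaps were narrow, as between Rgs9 at 1.91 and Rgs17 at 1.85 FPKM in CD63 low replicate 1. Length-scaled levels assume that the whole annotated exon length is covered, which amplified low-input libraries need not achieve.

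**Figure D1:**
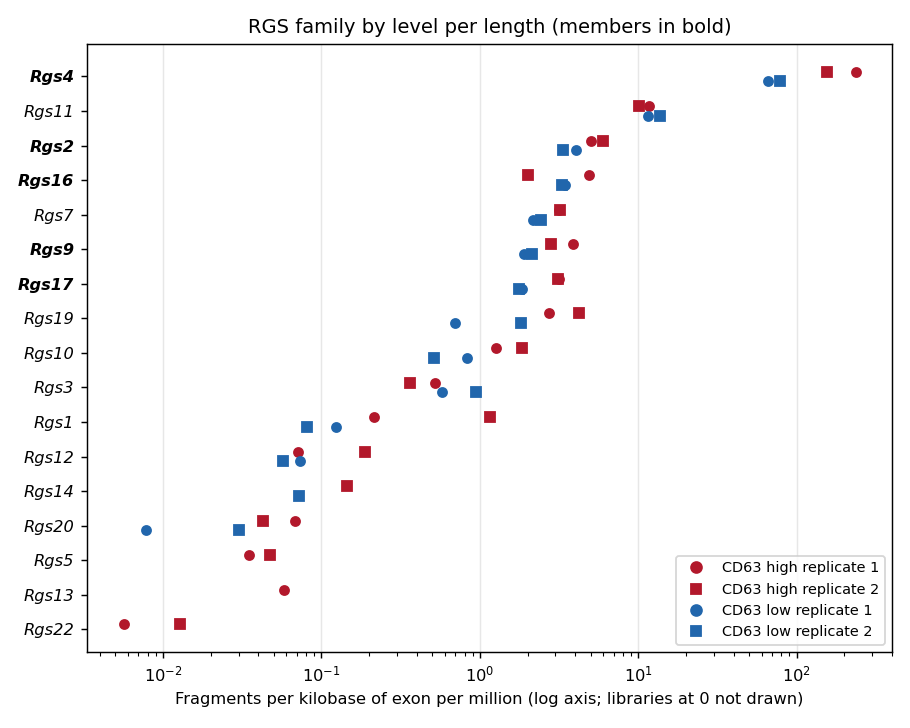
Level of every RGS gene with at least 1 count, as FPKM on a log axis, for each library of CD63 high (red) and CD63 low (blue) cells. Rgs4 lies far right of all others in every library, at 66.0 to 236 FPKM, and the remaining members lie between 1.77 and 6.01 FPKM.

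Rgs4 was also the one member that passed the test between the sorted populations, and it was higher in CD63 high cells. Rgs4 (chromosome 1, 169741477 to 169747642, minus strand, mm10) encodes a small RGS protein that acts on Gi and Gq class alpha subunits and is known to dampen muscarinic M3 receptor signalling in mouse beta cells. It had 22938 and 13409 counts in CD63 high replicates 1 and 2, against 6211 and 9536 counts in CD63 low replicates 1 and 2. Scaled by TMM, the default scaling of edgeR, these were 732 and 484 CPM for CD63 high, against 205 and 245 CPM for CD63 low libraries. Both CD63 high libraries lay above both CD63 low libraries, and CD63 high replicate 1 stood above replicate 2 by more than counting error. The mean was 608 ± 175 CPM for CD63 high, against 225 ± 28.4 CPM for CD63 low cells (SD, n = 2 each), a 2.71-fold higher level.

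The log2 fold change of Rgs4 was 1.44 (SE 0.24, 95% interval 0.91 to 1.96), with an edgeR adjusted p of 0.00983. Leaving out a single library gave 1.11 (CD63 high replicate 1 left out) to 1.70 (CD63 high replicate 2 left out). Such a fit has 1 library in a group, so only its effect size is read here. With library size as the only scaling the log2 fold change was 1.39 and the adjusted p 0.104, which ended the call. With 2 libraries on each side, the smallest two-sided p of an exact permutation test is 0.333.

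Counts of Rgs4 were also set against those of other genes inside each library, where no scaling enters. These values re-express the counts given above and are no further test, and the family total includes Rgs4 itself. Rgs4 took 81.6% and 75.3% of all counts of the RGS family in the CD63 high libraries, against 62.6% and 64.1% in the CD63 low libraries. For each count of Rgs11 there were 14.9 and 11.5 counts of Rgs4 in CD63 high replicates 1 and 2, and 4.25 in either CD63 low library. Against Gnai2, a Gi subunit gene, the ratio was 1.54 and 0.980 for CD63 high, against 0.366 and 0.455 for CD63 low libraries. Against Rgs2 and Rgs17, both members of the set, the groups lay closer, and ratios to Rgs9 and Rgs16 were not formed. The ratio to Rgs2 was 40.3 and 22.2 for CD63 high, against 13.9 and 20.3 for CD63 low libraries, and that to Rgs17 was 27.8 and 18.8 for CD63 high, against 13.3 and 16.7 for CD63 low libraries. These ratios were chosen after the values were seen. A ratio shows that the paired genes differed unequally, and not which of them moved.

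The 250 bases before the RefSeq start are shown for Rgs4, the member that passed the test, and for Rgs2 and Rgs16, the other members of its subfamily on the same chromosome. All 3 stretches come from RefSeq (GRCm38.p6, the same assembly as mm10) and read 5′ to 3′ on the gene's strand, with matches to TGACG, the half-site of the cAMP response element, on either strand in capitals. The printed stretches span chr1:169747643-169747892 for Rgs4 (minus strand), chr1:144004150-144004399 for Rgs2 (minus strand) and chr1:153740103-153740352 for Rgs16 (plus strand). RefSeq starts differ from the gene spans of the count tables, so that 12 bases of the Rgs2 stretch and 4 bases of the Rgs16 stretch lie inside those spans.
Rgs4: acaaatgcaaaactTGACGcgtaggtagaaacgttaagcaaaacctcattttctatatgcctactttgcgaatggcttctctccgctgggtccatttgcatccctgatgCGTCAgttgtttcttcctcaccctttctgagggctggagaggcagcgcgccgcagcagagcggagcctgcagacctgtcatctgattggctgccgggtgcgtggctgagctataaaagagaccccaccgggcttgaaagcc
Rgs2: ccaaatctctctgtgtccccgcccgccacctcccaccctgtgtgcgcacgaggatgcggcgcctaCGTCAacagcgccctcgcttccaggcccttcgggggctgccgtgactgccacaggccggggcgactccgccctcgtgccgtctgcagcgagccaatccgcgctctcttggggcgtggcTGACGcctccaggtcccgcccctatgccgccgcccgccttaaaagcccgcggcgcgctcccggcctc
Rgs16: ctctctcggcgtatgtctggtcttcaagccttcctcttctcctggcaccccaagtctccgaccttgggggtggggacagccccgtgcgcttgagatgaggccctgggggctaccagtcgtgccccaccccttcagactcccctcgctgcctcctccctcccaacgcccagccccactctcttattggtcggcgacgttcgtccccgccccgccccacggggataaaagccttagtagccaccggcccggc

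Rgs4 and Rgs2 each held 2 half-sites in this window, and Rgs16, Rgs9 and Rgs17 held none. Among 32544 RefSeq promoters cut to the same length, 17.8% held at least 1 half-site and 3.92% held 2 or more. The full site TGACGTCA, of which TGACG is a part, was in none of the 5 windows and in 1.55% of all promoters. CACGTG, the E-box core, was likewise in none of the 5 and in 6.03% of all. Rgs4 held TATAAA with its first base 31 bases before the start, a motif found somewhere in 12.3% of all windows, and Rgs9 held it 195 bases before. CCAAT on either strand, found in 33.8% of all windows, was in those of Rgs2, Rgs4, Rgs9 and Rgs16. Matches describe letters only, and the files hold no measurement of binding.

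Rgs2 and Rgs16 are the other members of the same subfamily, R4, made of short proteins with little besides the RGS domain. Rgs2 (chromosome 1, 143999338 to 144004161, minus strand) acts mainly on Gq. It had 18.2 and 21.8 CPM in the CD63 high libraries, from 569 and 604 counts, and 14.8 and 12.1 CPM in the CD63 low libraries, from 448 and 470 counts. The groups did not overlap, and the nearest libraries were at 18.2 CPM for CD63 high, against 14.8 CPM for CD63 low. The log2 fold change was 0.58 (SE 0.25, 95% interval 0.03 to 1.13) and the edgeR adjusted p 0.312, so Rgs2 did not pass the test.

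Rgs16 (chromosome 1, 153740349 to 153745468, plus strand) acts on Gi and Gq and is known in mouse from developing endocrine cells and from islets under raised glucose. It had 11.5 and 4.69 CPM in CD63 high replicates 1 and 2, and 8.10 and 7.67 CPM in CD63 low replicates 1 and 2. Its CD63 high libraries thus lay on either side of both CD63 low libraries. The exact Poisson 95% intervals of the CD63 high libraries, 10.3 to 12.7 CPM from 360 counts and 3.92 to 5.57 CPM from 130 counts, lay apart. Those of the CD63 low libraries, 7.12 to 9.18 CPM from 246 counts and 6.83 to 8.59 CPM from 299 counts, overlapped. The log2 fold change was 0.04 (SE 0.40), with an interval from -0.84 to 0.92, and the edgeR adjusted p was 0.982. It was -0.75 once CD63 high replicate 1 was left out and 0.54 once CD63 high replicate 2 was. An antisense gene name, Gm28513, shares 236 exon bases with Rgs16 in these unstranded counts and had 1 count over all libraries.

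**Figure D2:**
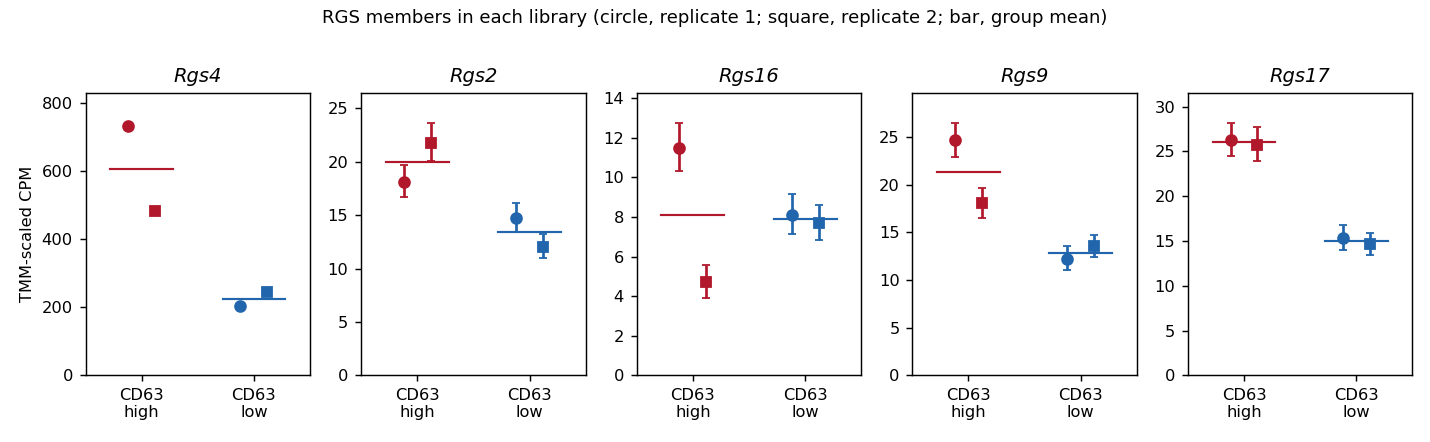
TMM-scaled CPM of each member in the 4 libraries, with CD63 high (red) left of CD63 low (blue), exact Poisson 95% intervals and group means. Rgs4, Rgs2, Rgs9 and Rgs17 have both CD63 high libraries above both CD63 low libraries, and the CD63 high libraries of Rgs16 (11.5 and 4.69 CPM) straddle its CD63 low libraries.

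Rgs9 belongs to the R7 subfamily, larger proteins that are stable only in complex with the beta subunit Gnb5 and that act on Gi and Go. Its best known roles are in photoreceptors and striatal neurons. Rgs9 (chromosome 11, 109225355 to 109298129, minus strand) had 24.7 and 18.1 CPM for CD63 high, against 12.2 and 13.6 CPM for CD63 low libraries. The groups did not overlap. The log2 fold change was 0.73 (SE 0.25, 95% interval 0.17 to 1.29), and the edgeR adjusted p of 0.189 missed the threshold. It was 0.49 once CD63 high replicate 1 was left out and 0.94 once CD63 high replicate 2 was.

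None of the other tested R7 genes or partners passed the test. Rgs7 had 19.0 and 19.3 CPM for CD63 high, against 13.1 and 14.7 CPM for CD63 low libraries, at a log2 difference of 0.46 (SE 0.24; edgeR adjusted p 0.403). Rgs11 had 49.2 and 42.2 CPM for CD63 high, against 48.1 and 57.6 CPM for CD63 low libraries, at a log2 difference of -0.21 (SE 0.21; edgeR adjusted p 0.717), and 138 of its exon bases overlap Arhgdig on the other strand. The summed level of the R7 genes was 92.9 and 79.6 CPM for CD63 high, against 73.5 and 85.8 CPM for CD63 low libraries, which overlapped. Gnb5, their obligate partner, had 19.0 and 25.3 CPM for CD63 high, against 22.0 and 24.4 CPM for CD63 low libraries, with a log2 fold change of -0.07 (95% interval -0.60 to 0.46); 248 of its exon bases overlap Gm19531 on the other strand. Of the membrane anchors, Rgs7bp was at -0.05 (SE 0.31) and Gpr158, a receptor that binds Rgs7, at -0.42 (SE 0.25). Rgs9bp, the anchor of Rgs9 in photoreceptors, had no count in any library, which allows up to 3 counts per library or 0.0770 to 0.108 CPM.

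Rgs17 is of the RZ subfamily, which acts on Gi and above all on Gz, the class that in beta cells couples inhibitory receptors to lower cAMP. Rgs17 (chromosome 10, 5825663 to 5922400, minus strand) had 26.3 and 25.7 CPM for CD63 high, against 15.4 and 14.7 CPM for CD63 low libraries. On this TMM scale it had the tightest replicates of the 5 members, and the groups lay well apart. Scaled by total counts alone, its replicates spread more, at 27.1 and 24.4 CPM for CD63 high, against 14.1 and 16.3 CPM for CD63 low. The groups stayed apart there too. The level was 1.73-fold higher in CD63 high cells, with an SD of 0.387 CPM for CD63 high and 0.494 CPM for CD63 low (n = 2 each). The log2 fold change was 0.79 (SE 0.22, 95% interval 0.30 to 1.29), and the edgeR adjusted p was 0.0989. DESeq2 called it with an adjusted p of 0.0411. Leaving out a library moved the log2 fold change only between 0.78 and 0.82, with adjusted p of 0.114 to 0.298.

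Rgs19, a second RZ gene, had 6.09 and 9.39 CPM for CD63 high, against 1.55 and 4.08 CPM for CD63 low libraries. Its log2 fold change was 1.45 (SE 0.47) and its edgeR adjusted p 0.154. Leaving out a library gave 0.92 to 2.33, the latter with CD63 low replicate 2 left out. With all libraries, Rgs19 passed with no filter (edgeR adjusted p 0.00700) and with the replicate number as a block (edgeR adjusted p 0.0161). Rgs20, the third, had 9 and 5 counts for CD63 high, against 1 and 5 counts for CD63 low libraries and was too low to be tested; 127 of its exon bases overlap Atp6v1h on the other strand.

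Set against all genes, 1 of the 5 members was called higher and none lower, where 2.50% of tested genes were called higher and 0.287% lower. Groups did not overlap in 4 of the 5 members, all with CD63 high above; over all tested genes this held for 46.0%, with CD63 high above in 23.8% and below in 22.2%. All 5 log2 fold changes lay above 0, as did 48.6% of all, and their median was 0.73 against -0.01 over all genes tested. The 5 were chosen with earlier results of these data known, so these shares describe the members and test nothing. All 5 members, Rgs4 included, lay between the 5th percentile of all genes at -0.84 and the 95th at 1.95.

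**Figure D3:**
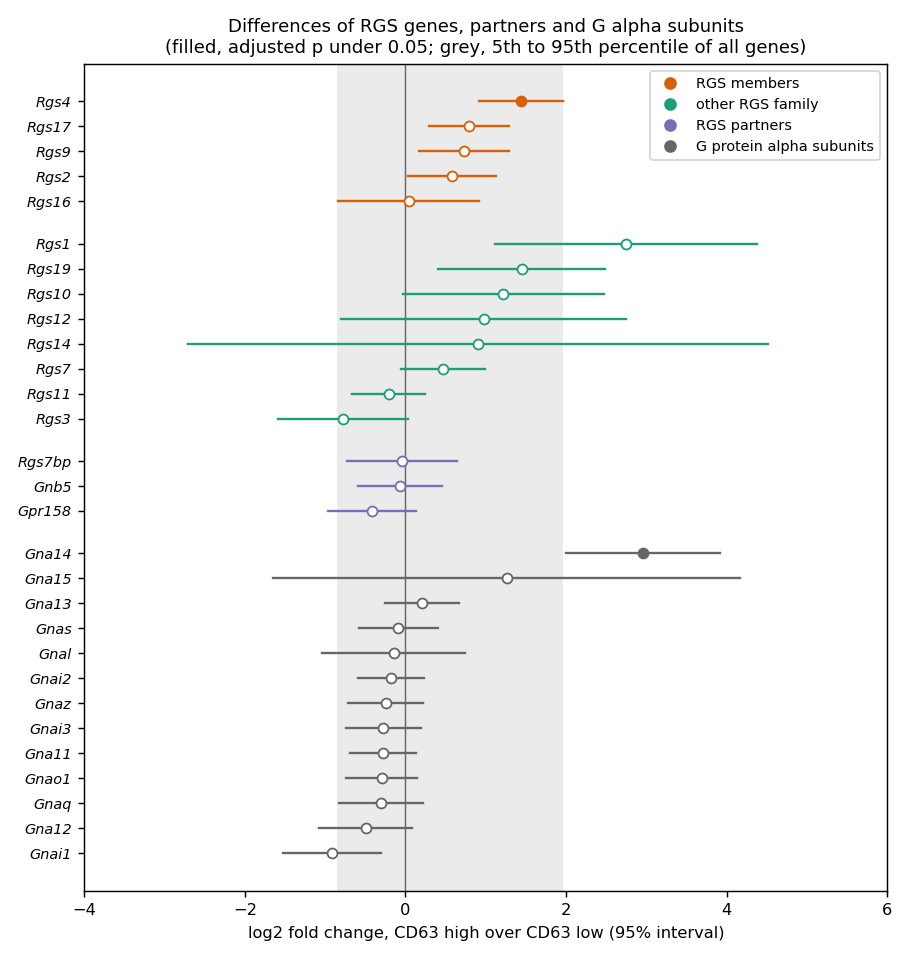
Log2 fold change of CD63 high over CD63 low with its 95% interval for the members, the other tested RGS genes, the RGS partners and the G protein alpha subunits; filled points passed an edgeR adjusted p of 0.05 and the grey band spans the 5th to 95th percentile of all tested genes. Rgs4 at 1.44 and Gna14 at 2.96 are the filled points.

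The other 16 RGS genes fell into 8 that were tested and 8 that were too low. None of the 8 tested genes was called by edgeR, 2 had an unadjusted p under 0.05 (Rgs1 and Rgs19), DESeq2 called 1 and limma-voom none. Over all genes tested, 1974 of 13241 had an unadjusted p under 0.05. The median log2 fold change of these 8 RGS genes was 0.94, with 6 above 0 and 2 below. Rgs1, known mainly from lymphocytes and activated myeloid cells, had 47 and 222 counts in CD63 high replicates 1 and 2, against 26 and 22 counts in CD63 low replicates 1 and 2. Nearly all of its excess stood in CD63 high replicate 2, the library with the highest summed level of macrophage markers (525 CPM). Its log2 fold change was 2.74 (SE 0.74, edgeR adjusted p 0.0835), 1.08 with that library left out. It was 3.50 with CD63 high replicate 1 left out and 3.06 with CD63 low replicate 1 left out. With all libraries, Rgs1 passed with no filter (edgeR adjusted p 1.73e-05) and with DESeq2 (adjusted p 0.00772). It also passed with the replicate number as a block (edgeR adjusted p 0.0115) and with those numbers crossed, a block added after seeing the data (0.0268). The part of macrophage RNA in this value was not tested.

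Rgs10, a small RGS protein of myeloid cells and neurons, had 2.17 and 3.14 CPM for CD63 high, against 1.42 and 0.873 CPM for CD63 low libraries, at a log2 difference of 1.22 (SE 0.57; edgeR adjusted p 0.354). Rgs3 had 5.65 and 3.90 CPM for CD63 high, against 6.19 and 10.2 CPM for CD63 low libraries (-0.78, SE 0.37, edgeR adjusted p 0.362). Rgs12 and Rgs14 had at most 44 and 17 counts in a library, with standard errors of 0.80 and 1.63. Rgs6, Rgs8, Rgs18 and Rgs21 had no count in any library.

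On chromosome 1 the R4 genes lie in clusters, and their levels differed widely. Rgs5 lies 45.7 kb from Rgs4 with no gene name between them, yet it had 5 and 6 counts in CD63 high libraries and no count in CD63 low libraries, against 6211 to 22938 for Rgs4. Rgs5 is a marker of pericytes, and stellate and pericyte markers summed to 0.493 and 5.30 CPM for CD63 high, against 1.61 and 0.629 CPM for CD63 low libraries, with Pdgfra at 0 in all 4. Rgs8 lies 40.0 kb from Rgs16 and had no count, while Rgs16 had 130 to 360. Rgs13, 134 kb from Rgs2, had 3 counts in CD63 high replicate 1 and none elsewhere, and Rgs1 lies a further gene along at 238 kb.

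The substrates of the RGS proteins were next compared. All 13 G protein alpha subunit genes were tested, and 1 rose and none fell, beside 2.50% and 0.287% of all genes tested. Their median log2 fold change was -0.25, with 3 above 0 and 10 below, where 48.6% of all genes lay above 0. Groups did not overlap in 2 with CD63 high above and in 7 with CD63 high below. Over all genes these shares were 23.8% and 22.2%. The one that rose was Gna14, a Gq class subunit, with 7.66 and 6.07 CPM for CD63 high, against 1.02 and 0.744 CPM for CD63 low libraries. Its log2 fold change was 2.96 (SE 0.43, edgeR adjusted p 0.00593). It passed in every alternative that kept all libraries, narrowly with library size as the only scaling (edgeR adjusted p 0.0454). Leaving out a library gave a log2 fold change of 2.76 to 3.19. Subunits and receptors named from here on, other than Gna14, Sstr2 and the genes with the smallest p in lists without a call, were chosen for their known link to the members after their values were seen. None of these other subunits passed the test. Gnai2 had 475 and 494 CPM for CD63 high, against 559 and 538 CPM for CD63 low libraries (log2 fold change -0.18, 95% interval -0.59 to 0.23). Gnaq was at -0.30 (interval -0.83 to 0.22) and Gnaz, the target of Rgs17, at -0.25 (-0.71 to 0.22). Gnai1 was lower without passing, at 9.57 and 14.5 CPM for CD63 high, against 25.4 and 19.9 CPM for CD63 low libraries (-0.91, SE 0.28, edgeR adjusted p 0.127).

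Of 10 tested beta and gamma subunit genes none was called by edgeR, DESeq2 or limma-voom, and 4 had an unadjusted p under 0.05 (median log2 fold change 0.17). Such a p was found for 1974 of all 13241 genes tested. Gng2 had 3.76 and 3.10 CPM for CD63 high, against 1.19 and 1.03 CPM for CD63 low libraries (1.63, SE 0.50, edgeR adjusted p 0.131). Gng7 went the other way, with a log2 fold change of -2.82 (SE 1.06, edgeR adjusted p 0.226). Gng11 had 12 and 10 counts in CD63 high and none in CD63 low libraries, and did not pass (edgeR adjusted p 0.111). With the CD63 low group held at a floor of 3 counts over both libraries, its level was 8.61-fold higher in CD63 high. That value leaves out the error of the CD63 high counts and is no strict bound.

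Receptors whose signals RGS proteins end were compared in the same way. Of these, 10 Gi and Go coupled and 6 Gq coupled genes were too low to test. Among 10 tested Gi and Go coupled receptors 4 had an unadjusted p under 0.05, beside 1974 of all 13241 genes tested. By adjusted p 1 rose and none fell, beside 2.50% and 0.287% of all genes tested, and the median log2 fold change was -0.08. The one that rose, the somatostatin receptor Sstr2, had 38 and 15 counts in CD63 high and none in CD63 low libraries (edgeR adjusted p 0.0438). By the same floor, and with the same limit, its level was 20.7-fold higher. Sstr2 in mouse islets is best known from alpha cells, and 2 of 9 tested alpha cell markers, Gcg and Gc, rose in the same libraries; their part in the result was not tested. The call of Sstr2 ended with library size as the only scaling (edgeR adjusted p 0.120), in the robust fit (0.0517) and with CD63 high replicate 1 (0.214), CD63 low replicate 1 (0.0726) or CD63 low replicate 2 (0.124) left out. Sstr3, which beta cells express, had 64.4 and 51.7 CPM for CD63 high, against 56.8 and 81.8 CPM for CD63 low libraries (-0.26, SE 0.23). The galanin receptor Galr1 was lower without passing, at 12.8 and 10.5 CPM for CD63 high, against 21.4 and 19.9 CPM for CD63 low libraries (-0.82, SE 0.24, edgeR adjusted p 0.118), and so was the cannabinoid receptor Cnr1 (-1.49, SE 0.45, edgeR adjusted p 0.124).

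Of 9 tested Gq coupled receptors edgeR and limma-voom called none, DESeq2 called 1, and 3 had an unadjusted p under 0.05 (median log2 fold change -0.40). The count of such p-values over all 13241 genes tested was 1974. Chrm3, the M3 receptor that Rgs4 is known to restrain, had 5.10 and 5.74 CPM for CD63 high, against 7.68 and 8.06 CPM for CD63 low libraries (-0.54, SE 0.31, edgeR adjusted p 0.477). Casr, the calcium-sensing receptor, was at -1.21 (SE 0.40, edgeR adjusted p 0.166). Lpar1 was at -1.37 (SE 0.58, edgeR adjusted p 0.303). Ednra had 14 and 21 counts in CD63 high and none in CD63 low libraries, and did not pass (edgeR adjusted p 0.0633). By the same floor, and with the same limit, its level was 13.7-fold higher. Of 10 Gq effectors none was called by any of the 3 tools and none had an unadjusted p under 0.05 (median -0.23), the protein kinase C gene Prkcb having the smallest p (-0.52, SE 0.25, edgeR adjusted p 0.384). Of 11 other switch proteins, such as receptor kinases, arrestins and the Gi-binding Gpsm1, none was called by any of the 3 tools, 1 had an unadjusted p under 0.05 (Gpsm1, -0.47, SE 0.19) and the median was -0.30.

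Genes known to be induced by calcium or cAMP included 3 that rose. Of 12 tested, none fell, all 12 log2 fold changes lay above 0, and the median was 1.16. Over all genes tested, 2.50% were called higher and 48.6% lay above 0. The summed level of all 15 listed genes was 903 and 593 CPM for CD63 high, against 397 and 603 CPM for CD63 low libraries. These sums were scaled by total counts and not by TMM, and on that scale they overlapped between the groups. The overlap lay between CD63 high replicate 2 and CD63 low replicate 2, with TMM factors of 0.947 and 1.11. It therefore need not hold on the TMM scale used for the single genes. The cAMP-responsive modulator Crem had 93.0 and 92.6 CPM for CD63 high, against 43.7 and 44.9 CPM for CD63 low libraries, at a log2 difference of 1.07 (SE 0.19; edgeR adjusted p 0.0148). Fos had 59.1 and 26.8 CPM for CD63 high, against 7.64 and 8.98 CPM for CD63 low libraries (2.37, SE 0.35, edgeR adjusted p 0.00593). Nr4a1 had 15.9 and 7.47 CPM for CD63 high, against 1.75 and 3.52 CPM for CD63 low libraries (2.14, SE 0.45, edgeR adjusted p 0.0322). All 3 calls ended with library size as the only scaling (edgeR adjusted p 0.104 for Crem, 0.0798 for Fos and 0.179 for Nr4a1), and that of Nr4a1 also with limma-voom (0.0518) and with CD63 high replicate 1 left out (0.0691).

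The markers of other cells were read in the same libraries, and their part in the difference of Rgs4 was not tested. In CD63 high replicates 1 and 2, macrophage markers summed to 158 and 525 CPM and delta cell markers to 465 and 842 CPM. In the same order, alpha cell markers summed to 5622 and 5824 CPM, acinar markers to 709 and 1125 CPM and duct markers to 2833 and 1504 CPM. In CD63 low libraries acinar markers summed to 20.3 and 306 CPM and duct markers to 832 and 954 CPM. Of 9 tested acinar markers 3 rose, with Amy2a5 at 0 in all 4 libraries, and of 6 tested duct markers 1 rose (Spp1), with Cftr at 0. Among gamma cell markers 3 of 4 tested rose, with sums of 2404 and 3896 CPM for CD63 high, against 518 and 312 CPM for CD63 low libraries. Lymphocyte markers were near 0, with sums of 1.48 and 0.821 CPM for CD63 high, against 2.25 and 1.17 CPM for CD63 low libraries and Cd3d, Cd3e, Ms4a1, Nkg7, Cd2 and Cd8a at 0 in all 4. Endothelial markers summed to 7.98 and 4.89 CPM for CD63 high, against 4.64 and 6.69 CPM for CD63 low libraries, with Cdh5 and Tie1 at 0 and none of 3 tested markers called by edgeR, DESeq2 or limma-voom (1 with an unadjusted p under 0.05). Neutrophil markers summed to 1.15 and 1.57 CPM for CD63 high, against 0 and 0.0286 CPM for CD63 low libraries, with Retnlg and Cxcr2 at 0; the 1 tested marker, Mmp9, rose.

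**Figure D4:**
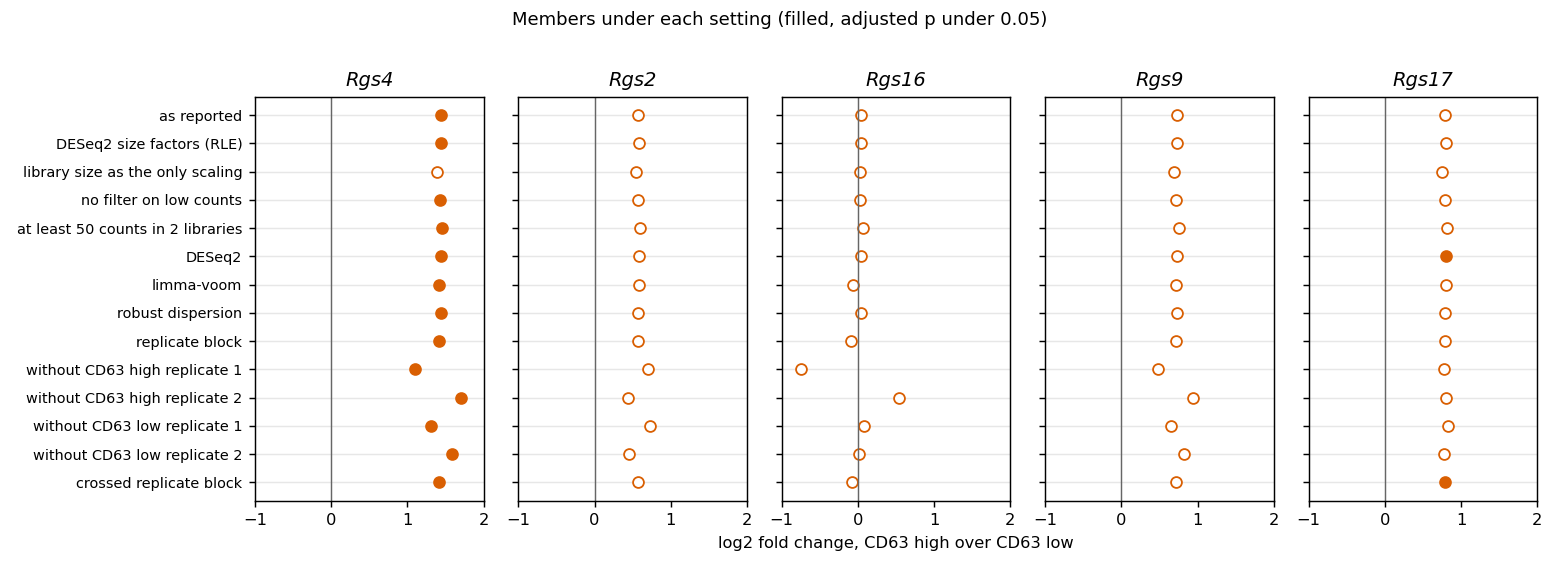
Log2 fold change of each member under every setting, one row per setting, with filled points for an adjusted p under 0.05. Rgs4 stays between 1.11 and 1.70 and is filled in all settings but library size as the only scaling, while Rgs16 ranges from -0.75 to 0.54.

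Genes with the most similar profile were sought among tested genes of like abundance, by the distance between their 4 centred log2 CPM values. With only 4 libraries, likeness of this kind is a description. Nearest to Rgs4 were Ly6e (distance 0.37), H2-T23 (0.47) and Ifi27 (0.51), out of 235 candidates, and none came within 0.25. Ly6e had 720 and 413 CPM for CD63 high, against 217 and 186 CPM for CD63 low libraries. Nearest to Rgs17 were Ifnar2 (0.10), Ifngr2 (0.16) and Slc17a9 (0.18), out of 4298. Nearest to Rgs2 were Cisd3, Maff and Aprt at 0.05 to 0.08, where 100 of 4401 candidates came within 0.25. For Rgs9 they were Znrf1, Gbp7 and Unc13a (0.06 to 0.12, 18 of 4424 within 0.25), and for Rgs16 Stx2, Traf6 and Armt1 (0.16 to 0.21, 6 of 3787 within 0.25).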

How the data were processed

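The authors deposited raw counts for each gene name. Per the file headers, featureCounts 1.6.2 counted fragments of a merged alignment by gene name against the Cell Ranger mm10 3.0.0 annotation, with no option set for strand or for multi-mapping reads. The submitters' processing notes also list STAR 2.6.0c, FastQC and Cell Ranger without saying what each did; trimming was not given in the sources used here. Per the labels' protocols, cDNA came from a SMARTer v4 kit and libraries from Nextera XT; no molecular identifiers are named, so intervals and floors cover counting error only. Without strand, a gene and its antisense overlap share reads.

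Genes were kept with filterByExpr (minimum count 10, minimum total 15), scaled by TMM and compared by the quasi-likelihood test (glmQLFit, glmQLFTest) in edgeR 4.0.16 (R 4.3.3) between the groups, with no other covariate; p-values were Benjamini-Hochberg adjusted over all 13241 genes kept, and the same steps were tested on simulated data. Each SE is the absolute log2 difference divided by the root of its F statistic. CPM is TMM-scaled, except sums over marker lists and over the calcium and cAMP induced genes, which use total counts. FPKM divides scaled CPM by the deposited exon length. DESeq2 1.42.0 and limma-voom (limma 3.58.1) were alternatives. Members and lists were chosen with earlier results of these data known. Named besides the members are tested RGS genes and partners, and from each other list the genes called or else those with the smallest p; some alpha subunits and receptors were named outside this rule, after their values were seen. Replicates differed by far more than sampling noise (chi-square per degree of freedom 39.8 in CD63 high and 78.6 in CD63 low).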

Additional observations from a re-analysis of the deposited data

How the results depend on the processing

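With 2 libraries a group, power limits every result here, and genes under about 10 counts were not tested. A fit with a library left out has 1 library in a group, and its p-values rest on the spread of the other group. Passing in such a fit is therefore no measure of stability. Against 369 genes called in all, 67 were called with library size as the only scaling, 940 with no filter, 686 with DESeq2, 616 with the replicate block, 942 with a crossed replicate block and 450 to 769 when a library was left out (769 with CD63 low replicate 1 left out). In the pathway lists outside the members, against 5, the counts were 1, 18, 11, 9, 14 and 5 to 11 in the same order. Among the other RGS genes none was called at first, and 2 were with no filter, 1 with DESeq2, 2 with the replicate block, 1 with the crossed one and 0 to 2 with a library left out.

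Rgs4 kept its direction in all 13 alternatives. Among those that kept all libraries, it missed the threshold only with library size as the only scaling, at a log2 fold change of 1.39. Leaving out a library gave Rgs4 1.11 to 1.70, Rgs2 0.44 to 0.72, Rgs9 0.49 to 0.94, Rgs17 0.78 to 0.82 and Rgs16 -0.75 to 0.54. Rgs17 passed with DESeq2 (0.80) and with the crossed block (0.79). Rgs16 changed sign with limma-voom (-0.072), the replicate block (-0.10), the crossed block (-0.085) and without CD63 high replicate 1 (-0.75). Among other genes, leaving out a library took Gnb5 from -0.29 to 0.13 (0.13 with CD63 high replicate 1 and 0.025 with CD63 low replicate 2 left out), Rgs7bp from -0.17 to 0.11 (0.057 with CD63 high replicate 2 and 0.11 with CD63 low replicate 2 left out) and Rgs14 from -0.026 to 6.20 (with CD63 low replicates 1 and 2 left out in turn; the second value is fitted against a library at 0 and is no bound). The cause was not tested. The labels do not say that equal replicate numbers mark a shared animal or day, the run names in the file headers number the CD63 low libraries otherwise than the titles used here, and libraries with the same number deviated from their group means with a correlation of -0.10 over genes, so the block and its crossed form, which was chosen after seeing the data, are alternatives only.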
